A study of Sus scrofa with 599 samples.

Results

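Retroperitoneal adipose (RAD), a visceral fat depot, was compared between pigs that were never obese (NC) and pigs that had been made obese and then lost weight (WL). The comparison used every NC and WL sample of RAD that a deposited label names: 12 NC and 10 WL RNA-seq libraries and 12 NC and 10 WL Hi-C samples, 44 of the 599 samples of the series. The pigs were adult female Bama pigs, a miniature breed, 2 years old at the start. NC pigs stayed on a normal diet. WG pigs became obese over 22 weeks of high-fat feeding. WL pigs were drawn at random from the WG pigs at that point and given 10% of the intake of a normal diet over the next 12 weeks, with no return to full feeding described, so that WL stands for weight loss under continued restriction. The libraries of obese RAD (WG, 39 RNA-seq libraries and 40 Hi-C samples) are given beside the NC and WL values. NC and WL are different pigs, and the labels number the samples without saying that a number marks a pig, so the p-values measure the spread between these samples.

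Adipocytes store triglyceride that is taken up from blood lipoproteins or built from glucose by de novo lipogenesis, in which ACLY makes cytosolic acetyl-CoA, ACACA turns it into malonyl-CoA and FASN joins these units to palmitate with NADPH from enzymes such as ME1. In fasting, the enzymes of storage are turned down and triglyceride is hydrolysed by PNPLA2 and LIPE. Obese fat also gathers macrophages that take up lipid from dying adipocytes, and the question put to these samples was which of the features of obese fat were still there after weight loss. In whole tissue, fewer cells of a type and less RNA per cell cannot be told apart.

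The tissue carried its adipocyte markers in every library. FABP4, the fatty acid carrier of adipocytes, lay at 3784 to 11819 (median 6196) CPM (counts scaled to library size after TMM normalisation) in NC and 4312 to 12606 (median 6720) in WL (log2 fold change 0.08 ± 0.19, adjusted p = 0.765 by edgeR's quasi-likelihood test). PLIN1, which coats the lipid droplet, and CIDEC, which enlarges it, also missed the threshold (log2 fold changes -0.37 and 0.11, adjusted p = 0.114 and 0.676). Other markers of the list were called in either direction, among them PPARG and ADIPOQ lower (log2 fold changes -1.10 and -0.60) and LEP and CFD higher (1.97 and 0.85), all described below. Log2 fold changes are of WL against NC, with standard errors. Genes past both limits, 0.05 for the adjusted p and 1.5 for the fold change in either direction, are called differentially expressed (DEGs).

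Libraries differed in depth and make-up. Counts on protein-coding genes (PCGs) were 8485310 to 20034857 per NC library and 12721994 to 20357269 per WL library. PCGs took 79.5% to 96.8% of the summed TPM in NC and 76.2% to 94.1% in WL, and the means did not differ detectably (88.8% ± 6.70, SD, n = 12, against 89.2% ± 6.93, n = 10, two-sided permutation p = 0.894). The share was below 88% in NC replicates 1, 2, 5, 7, 8 and 12 and in WL replicates 4 and 5. Genes of the mitochondrial genome took 17.7% ± 9.86 of PCG TPM in NC and 1.65% ± 0.794 in WL (permutation p = 2e-05, the smallest that 100000 permutations gave). NC replicates 4, 6 and 10 stood apart from the other 9 NC libraries with 2.09%, 3.48% and 4.82%, where the others held 13.6% to 30.5%. Some results are given without them as well, and for other genes only the values of these 3 libraries are given.

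**Figure D1:**
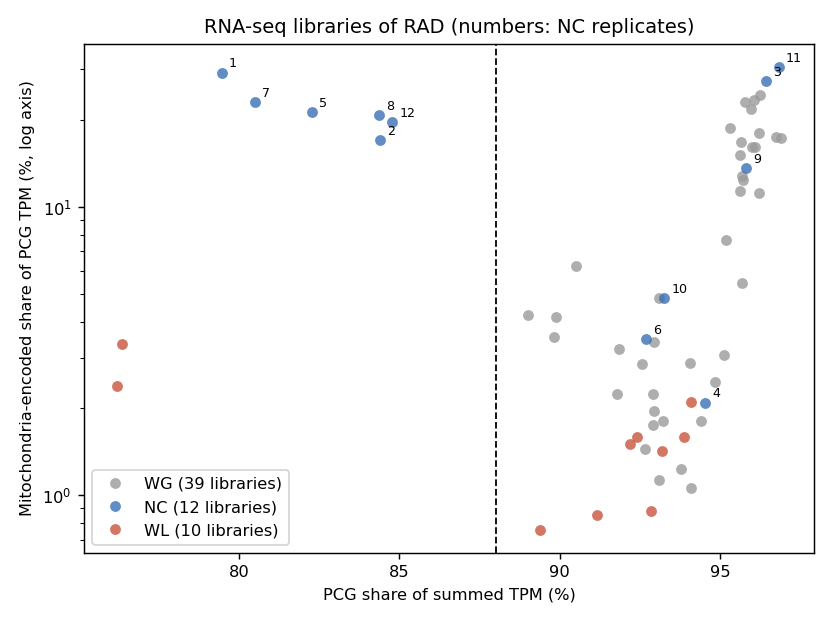
Share of summed TPM on PCGs (x axis, %) against the share of PCG TPM on mitochondria-encoded genes (y axis, %, log axis) for each RAD library; the dashed line marks 88% and the numbers are NC replicates. NC replicates 4, 6 and 10 lie among the WG libraries of low mitochondrial share, near the WL libraries, while 6 NC and 2 WL libraries lie left of the line.

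Of 13782 PCGs tested, 1403 were higher and 2282 lower in WL than in NC, 26.7% in all (10.2% higher and 16.6% lower). Most tested genes, 12786, passed the filter on low values in both groups, and 1272 of these were higher and 1944 lower. The other DEGs passed through 1 group: of 384 genes that passed in NC alone 310 were lower, and of 612 that passed in WL alone 131 were higher, so their direction is partly set by the filter. With the PCG share set (below 88% or not) as a term, 1184 of the higher and 1768 of the lower DEGs were called again and 0 in the opposite direction, and 9.01% of tested PCGs were higher and 13.3% lower in that fit. Between the 6 NC and 8 WL libraries of high share, which include NC replicates 4, 6 and 10, 695 PCGs were higher (5.04%) and 1293 lower (9.38%). Between the low-share libraries 1727 were higher and 2009 lower (27.1% in all). Without NC replicates 4, 6 and 10 the counts were 2167 and 2741.

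De novo lipogenesis fell in WL. After the mitochondria-encoded genes it had the lowest median and the largest share of lower members of the 39 gene lists examined. Of its 15 tested members 0 were higher and 11 lower in WL (median log2 fold change -1.15), against 10.2% higher and 16.6% lower over all tested PCGs. FASN, which builds palmitate, spanned 2700.3 to 17615 (median 8998) CPM in NC and 22.7 to 372 (median 128) in WL, so the highest WL library stayed far below the lowest NC library (log2 fold change -5.85 ± 0.48, adjusted p = 9.96e-09). Groups that did not overlap in this direction were found for 0.682% of tested PCGs. The fall of FASN was as large without NC replicates 4, 6 and 10 (log2 fold change -5.96) and was seen in the libraries of high and of low PCG share (-5.46 and -6.29).

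ME1, the malic enzyme that supplies NADPH, fell from a range of 311 to 908 (median 485) CPM in NC to a range of 35.6 to 117 (median 54.1) in WL with no overlap (log2 fold change -3.00 ± 0.23, adjusted p = 5.20e-09). ACLY, which splits citrate to acetyl-CoA, went from a range of 226 to 648 (median 401) to a range of 101 to 196 (median 152), again without overlap (log2 fold change -1.47 ± 0.17, adjusted p = 1.44e-06). MLXIPL, the carbohydrate-responsive factor ChREBP that switches on lipogenic genes, lay at 26.5 to 192 (median 124) in NC and at 7.02 to 29.2 (median 11.5) in WL (log2 fold change -3.18 ± 0.34, adjusted p = 6.59e-07). Its lowest NC values, 26.5 to 53.5, were those of NC replicates 4, 6 and 10, and 9 of 10 WL libraries lay below all of NC. ACACA, the acetyl-CoA carboxylase, fell less and its groups overlapped, with 688 to 1572 (median 1188) in NC and 381 to 1206 (median 663) in WL (log2 fold change -0.82 ± 0.19, adjusted p = 0.00192). It was not called among the libraries of high PCG share (log2 fold change -0.67, adjusted p = 0.0803). SCD, the stearoyl-CoA desaturase, spread widely, at 327 to 7202 (median 3181) in NC and 65.8 to 4587 (median 618) in WL, and its difference missed the threshold (log2 fold change -1.28 ± 0.64, adjusted p = 0.108), though it passed without WL replicate 4 (-1.68, adjusted p = 0.042).

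Per length, the order of these enzymes changed between the groups. Mean TPM in NC was 1321 for FASN, 973 for SCD, 326 for ME1, 192 for ACACA and 140 for ACLY. In WL, FASN stood last of these 5 with 28.9 TPM, after SCD (485), ACACA (138), ACLY (62.5) and ME1 (50.5). Differences between genes were not tested.

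In obese RAD the medians of these enzymes lay within the NC range. FASN had a median of 4764 CPM in the WG libraries, ME1 418 and ACLY 444. In their own 2-group fits, which share the NC or the WL libraries with the comparison above, 1 lipogenic gene of 15 was higher and 1 lower in WG than in NC, and 0 were higher and 12 lower in WL than in WG. Of all tested PCGs, 7.1% and 9.6% were called higher and lower from NC to WG (16.7% in all) and 2.24% and 4.13% from WG to WL (6.37% in all). The log2 fold change of FASN was -0.55 from NC to WG and -5.31 from WG to WL, and that of SCD was 1.49 and -2.79.

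The promoter sequences of 3 enzymes of this path are shown because the path fell as a group; each is the 250 bases before the RefSeq gene start in Sscrofa11.1, read 5′ to 3′ on the strand of the gene, with capitals marking CCAAT boxes (CCAAT or its reverse complement ATTGG, the motif of NF-Y). The windows are chr12:922155-922404 (plus strand) for FASN, chr12:38875068-38875317 (minus strand) for ACACA and chr12:20796428-20796677 (plus strand) for ACLY.
FASN: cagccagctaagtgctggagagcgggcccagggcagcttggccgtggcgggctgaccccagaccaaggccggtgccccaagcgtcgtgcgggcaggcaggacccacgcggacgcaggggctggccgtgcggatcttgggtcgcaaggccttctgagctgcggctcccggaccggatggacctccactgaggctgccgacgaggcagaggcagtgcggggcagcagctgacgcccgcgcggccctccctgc
ACACA: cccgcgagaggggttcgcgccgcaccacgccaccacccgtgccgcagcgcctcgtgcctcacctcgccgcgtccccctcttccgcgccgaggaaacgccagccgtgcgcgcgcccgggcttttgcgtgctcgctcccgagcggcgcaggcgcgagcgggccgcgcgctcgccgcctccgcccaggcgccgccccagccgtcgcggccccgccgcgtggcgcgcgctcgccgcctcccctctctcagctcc
ACLY: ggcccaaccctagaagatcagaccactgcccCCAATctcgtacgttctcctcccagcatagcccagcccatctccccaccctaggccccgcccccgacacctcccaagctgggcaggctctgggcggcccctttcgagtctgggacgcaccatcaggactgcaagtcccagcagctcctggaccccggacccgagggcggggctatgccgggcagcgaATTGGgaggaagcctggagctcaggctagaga

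The FASN and ACACA windows held neither a CCAAT box nor the E-box CACGTG, and the ACLY window held 2 CCAAT boxes, starting 219 and 32 bases before the gene start. Of the 10 lipogenic DEGs with a window, 1 (ELOVL5) held CACGTG and 4 (ACLY, ELOVL5, ELOVL6 and PGD) held a CCAAT box, where 7.44% and 32.6% of the 10381 windows of tested PCGs did. The 2 motifs cannot overlap, both strands were searched, and a RefSeq gene start need not be the start used in this tissue.

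**Figure D2:**
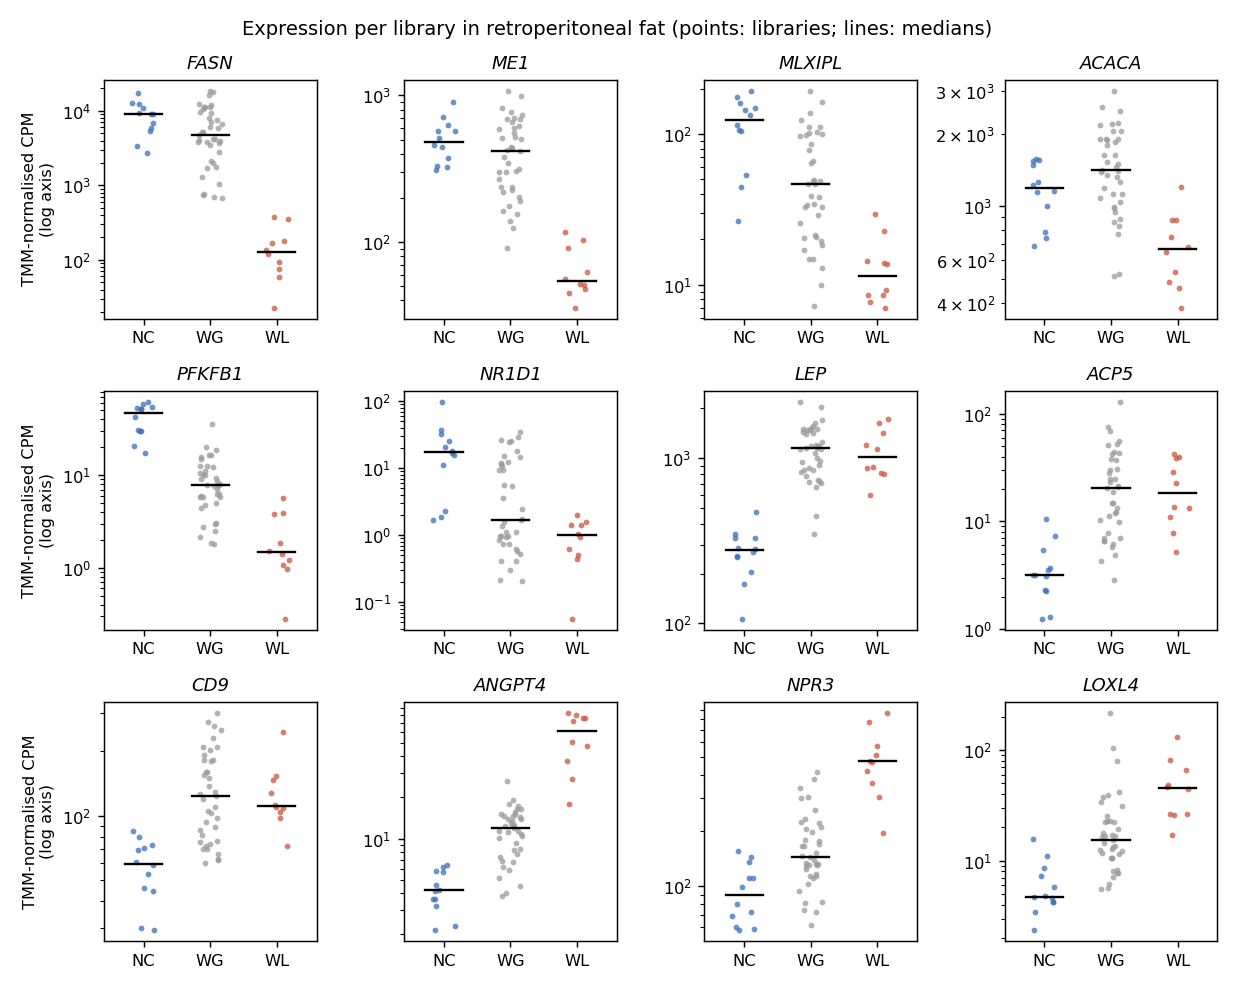
TMM-normalised CPM (y axis, log axis) of 12 genes in each NC (12), WG (39) and WL (10) RAD library; points are libraries and lines are medians. FASN and ME1 fall between WG and WL, LEP, ACP5 and CD9 are above NC in both WG and WL, and ANGPT4 and NPR3 are highest in WL.

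Genes of lipid uptake and storage were called in both directions. LPL, the lipase that frees fatty acids from lipoproteins, went from a range of 2402 to 4897 (median 3912) CPM in NC to a range of 849.8 to 3046 (median 1336) in WL (log2 fold change -1.37 ± 0.20, adjusted p = 2.07e-05), and 9 of 10 WL libraries lay below all NC libraries. Its anchor on the capillary wall, GPIHBP1, was higher in WL, with 60.6 to 203 (median 80.2) CPM in NC and 116 to 302 (median 199) in WL (log2 fold change 1.09 ± 0.19, adjusted p = 1.21e-04), as was its inhibitor ANGPTL4 (log2 fold change 0.93). The list of fatty acid uptake had 4 of 13 tested members higher and 2 lower (median log2 fold change 0.03), so it did not move one way. LPIN1 and DGAT2, which act late in triglyceride synthesis, were lower (log2 fold changes -1.60 and -1.63, adjusted p = 2.33e-05 and 0.00896), and these were the 2 DEGs among 12 tested members of triglyceride synthesis, close to the 16.6% lower over all tested PCGs. WL replicate 4 held the highest ACSL1 of all, 1661 CPM against a WL median of 287, and ACSL1, which activates fatty acids, was not called (log2 fold change -0.69 ± 0.37, adjusted p = 0.137). It was lower without that library (-1.25, adjusted p = 0.00173).

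The lipases were not higher in WL, and the list of lipolysis had 2 of 13 tested members higher and 4 lower (median log2 fold change -0.37). PNPLA2, the first triglyceride lipase, fell from a range of 248 to 735 (median 529.9) CPM to a range of 114 to 398 (median 185) (log2 fold change -1.24 ± 0.23, adjusted p = 2.48e-04), and its 3 lowest NC values came from NC replicates 4, 6 and 10 (248 to 300.5). LIPE, the hormone-sensitive lipase, lay at 1047 to 1864 (median 1401) and 617 to 1718 (median 950.3) and stayed under the fold limit (log2 fold change -0.499 ± 0.16, adjusted p = 0.0131), which it passed without WL replicate 4 (-0.62). HILPDA, a lipid droplet protein that inhibits PNPLA2, was higher (log2 fold change 1.22), and PDE3B and PRKAR2B, which damp cyclic AMP signals, were lower (-0.62 and -0.75). In fatty acid oxidation the 2 forms of the entry enzyme, CPT1A and CPT1B, were higher (log2 fold changes 0.75 and 0.71, adjusted p = 2.70e-04 and 3.48e-05), while the beta-oxidation enzyme HADH was lower (-0.84). That list had 2 of 24 tested members higher and 4 lower (median log2 fold change -0.17).

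PPARG, the master factor of adipocyte identity, was at 163 to 381 (median 249.7) CPM in NC and at 98.8 to 157 (median 128) in WL, below all NC libraries in every WL library (log2 fold change -1.10 ± 0.13, adjusted p = 3.15e-06). EBF1, ZNF423 and GATA3 were lower as well (log2 fold changes -0.64, -0.88 and -1.87). Of 16 tested transcription factors listed for adipogenesis, 0 were higher and 5 lower, but without NC replicates 4, 6 and 10 the counts were 5 and 6. The list was not split into factors that promote adipogenesis and factors that hold it back, so these counts give no direction of the process. The genes of insulin signalling had 0 of 21 higher and 3 lower, near the 16.6% lower over all tested PCGs. Among the 3 were IRS1, the insulin receptor substrate, at 31.5 to 66.3 (median 47.4) in NC and 17.97 to 51.3 (median 23.03) in WL (log2 fold change -0.95 ± 0.16, adjusted p = 1.23e-04), and GYS1, glycogen synthase (log2 fold change -1.11). In cholesterol synthesis 0 of 23 were higher and 4 lower (IDI1, FDFT1, LSS and SC5D, log2 fold changes -1.09, -0.77, -0.96 and -0.71), close to the 16.6% lower over all tested PCGs. Without NC replicates 4, 6 and 10 the cholesterol counts were 3 higher and 4 lower, and the median log2 fold change went from -0.06 to 0.08.

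Several of the largest falls lay outside lipogenesis. PFKFB1, the enzyme that sets fructose 2,6-bisphosphate and with it glycolysis, was at 17.5 to 62.2 (median 46.8) CPM in NC and 0.281 to 5.75 (median 1.47) in WL with no overlap (log2 fold change -4.31 ± 0.38, adjusted p = 3.11e-08). WG lay between, with a median of 7.82 (log2 fold change -2.25 from NC to WG and -2.07 from WG to WL). SLC36A2, an amino acid transporter known from brown adipocytes, showed the same order, from a range of 2.88 to 75.7 (median 19.8) in NC to a range of 0.440 to 2.26 (median 0.865) in WL (log2 fold change -4.61 ± 0.47, adjusted p = 3.12e-07; WG median 4.39). P2RX5, an ATP-gated channel also used as a marker of brown and beige fat, was at 3.202 to 80.1 (median 40.6) in NC, at a median of 48.5 in WG and at 3.16 to 7.88 (median 5.61) in WL (log2 fold change -3.07 ± 0.34, adjusted p = 1.18e-06). CHAC1, a glutathione-degrading enzyme of the amino acid response, fell too (log2 fold change -3.61 ± 0.69, adjusted p = 3.05e-04), with NC libraries from 1.76 to 67.6 CPM.

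Clock genes were lower in WL, with 0 of 18 tested members higher and 9 lower (median log2 fold change -0.63). NR1D1, the repressor REV-ERBα that follows the daily rhythm most strongly, spanned 1.69 to 98.6 (median 17.5) CPM in NC and 0.0563 to 2.01 (median 0.993) in WL (log2 fold change -4.60 ± 0.65, adjusted p = 1.46e-05). Its NC values were uneven, since NC replicates 4, 6 and 10 lay at 1.69 to 2.34 and the other 9 at 11.05 to 98.6. HLF, CIART and BHLHE40, other outputs of the clock, were lower by -0.999, -1.07 and -1.35 on the log2 scale. Without the 3 NC libraries 0 were higher and 9 lower. That fit cannot check the fall, since it leaves out NC libraries whose NR1D1 lay near the WL values. The hour at which each pig was sampled is not given in the sources used here, so hour and group cannot be told apart.

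All 12 tested genes of the mitochondrial genome were lower in WL (median log2 fold change -4.40), the only of the 39 lists with every tested member called. ND4, a subunit of complex I, was at 5056 to 15423 CPM in 9 NC libraries, at 140.5 to 249 in NC replicates 4, 6 and 10, and at 24.7 to 284 (median 74.2) in WL (log2 fold change -6.43 ± 0.82, adjusted p = 4.62e-06). So 3 NC libraries overlapped the WL range, and WG spanned 27.9 to 10921. ATP8 was at 0 in every WL library and at 0.875 CPM at most in NC, and was not tested. COX1, a subunit of complex IV, was the exception, the only 1 of the 12 whose NC and WL libraries did not overlap. It was at 8289.8 to 24102 (median 14405) in NC and 2097 to 6503 (median 3219) in WL (log2 fold change -2.10 ± 0.23, adjusted p = 8.18e-07).

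Respiratory chain genes of the nucleus did not move as one. Of 54 tested, 1 was higher and 9 lower (median log2 fold change -0.31), where 10.2% of all tested PCGs were higher and 16.6% lower. The share of lower members was thus near that of all tested PCGs. Without NC replicates 4, 6 and 10 the counts were 8 and 7. COX4I1, COX5A and COX7A1, subunits of complex IV, were lower (log2 fold changes -1.18, -1.19 and -2.08), and so was NDUFB4 of complex I (-0.78). COX5A went from a range of 34.2 to 74.7 (median 42.5) CPM to a range of 12.6 to 39.2 (median 18.3), with 9 of 10 WL libraries below all NC libraries (log2 fold change -1.19 ± 0.19, adjusted p = 4.23e-05). With the mitochondria-encoded genes left out before scaling, 1361 PCGs were higher and 2324 lower.

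Leptin was higher after weight loss than in pigs that were never obese. LEP, the hormone that reports fat stores to the brain, lay at 106 to 469 (median 277) CPM in NC, at a median of 1151 in WG and at 596 to 1721 (median 1011) in WL, so that the lowest WL library was above the highest NC library (log2 fold change 1.97 ± 0.21, adjusted p = 6.89e-07). Groups that did not overlap with WL higher were found for 0.74% of tested PCGs. In the fits that share these libraries, the log2 fold change of LEP was 2.01 from NC to WG and -0.05 from WG to WL. The difference held in the libraries of high and of low PCG share (1.90 and 2.12) and without the 3 NC libraries (1.996).

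Other adipokines did not follow leptin as a group, with 5 of 12 tested members higher and 2 lower (median log2 fold change 0.43). CFD (adipsin) and METRNL, a secreted factor of fat and muscle, were higher (log2 fold changes 0.85 and 1.33, adjusted p = 1.83e-04 and 9.02e-05), and RBP4, the retinol carrier, was lower (-1.29, adjusted p = 0.00141). ADIPOQ, adiponectin, was at 3561 to 15648 (median 5660.2) CPM in NC and 2574 to 7773 (median 4076) in WL (log2 fold change -0.60 ± 0.23, adjusted p = 0.0393). This call was lost when any 1 of 10 libraries was left out (NC replicates 1, 4, 6 and 9 and WL replicates 1, 2, 6, 7, 8 and 10, log2 fold changes -0.58 to -0.44 and adjusted p = 0.0571 to 0.0739). It was also lost without NC replicates 4, 6 and 10 (adjusted p = 0.125), and between the low-share libraries the sign was the opposite (0.31, adjusted p = 0.410).

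Several of the largest rises went from NC over WG to WL. ANGPT4, a ligand of the vessel receptor TEK, went from a range of 2.14 to 6.404 (median 4.19) CPM in NC to a median of 12.0 in WG and to a range of 18.01 to 83.2 (median 61.6) in WL (log2 fold change 3.66 ± 0.26, adjusted p = 2.88e-09). NPR3, the receptor that clears natriuretic peptides, went from a range of 58.0 to 154 (median 89.9) over 144 to a range of 194 to 864 (median 474) (log2 fold change 2.32 ± 0.23, adjusted p = 2.16e-07). MEGF6 and LOXL4, the latter an enzyme that crosslinks collagen and elastin, also had WL libraries above all NC libraries (log2 fold changes 3.61 and 2.96, adjusted p = 3.12e-07 and 1.44e-06). The log2 fold changes from WG to WL were 2.30 for ANGPT4, 1.56 for NPR3, 1.75 for MEGF6 and 1.01 for LOXL4, and the last was not called.

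Of the 12 DEGs with the largest rise by the naming rule, the others were ACP5, RGS17, RGS1, NDRG4, FRMD1, WNT6, GPR27 and DDC. RGS17, a brake on G-protein signals, had medians of 5.88, 33.8 and 45.5 CPM in NC, WG and WL (log2 fold change 2.43 ± 0.37, adjusted p = 3.11e-05), and WL replicate 3 lay apart from the other WL libraries at 9.83. NDRG4 was at 5.79 to 89.3 (median 14.9) in NC and 47.6 to 315 (median 131) in WL (log2 fold change 2.54 ± 0.44, adjusted p = 1.25e-04), with a WG median of 24.7. WNT6, a Wnt ligand, and DDC, the aromatic amino acid decarboxylase, spread widely within WL (from 0.397 to 37.5 and from 1.64 to 83.1 CPM), and their groups overlapped.

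Some macrophage genes of obese fat were higher in WL than in NC. Of 15 tested markers of lipid-associated macrophages, 7 were higher and 0 lower (median log2 fold change 0.62), and 4 and 0 in the high-share libraries. The separate fits had 12 higher and 0 lower from NC to WG and 0 higher and 1 lower from WG to WL. ACP5, a phosphatase of lipid-laden macrophages, had 1.24 to 10.5 (median 3.18) CPM in NC, a median of 20.4 in WG and 5.22 to 42.6 (median 18.2) in WL (log2 fold change 2.46 ± 0.38, adjusted p = 3.92e-05). CD9, a tetraspanin of the same cells, had 29.4 to 84.5 (median 59.9), 123 and 72.4 to 245 (median 111) (log2 fold change 1.08 ± 0.19, adjusted p = 1.44e-04), with 9 of 10 WL libraries above all NC libraries. SPP1, osteopontin, was higher on the whole (log2 fold change 1.72 ± 0.53, adjusted p = 0.0127) but spread from 51.7 to 1078 in WL. It was not called without WL replicate 6 (1.11, adjusted p = 0.0649), and between the low-share libraries its sign was the opposite (-0.28, adjusted p = 0.840). TREM2, the lipid receptor that names these cells, was at 0.564 to 7.62 (median 2.36) in NC and 2.64 to 13.2 (median 6.03) in WL (log2 fold change 0.99 ± 0.39, adjusted p = 0.0468). The call was lost in 15 of the 22 fits that leave out 1 library (log2 fold changes 0.80 to 1.03, adjusted p = 0.0515 to 0.109) and without NC replicates 4, 6 and 10 (adjusted p = 0.110).

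Markers of resident macrophages and monocytes had 6 of 18 tested members higher and 0 lower (2 and 0 in the high-share libraries, 5 and 1 without NC replicates 4, 6 and 10), with a summed level of 573 to 1673 CPM in NC and 1097 to 2566 in WL. C1QA, a complement subunit made by macrophages, lay at 24.2 to 81.4 (median 51.9) in NC and 82.2 to 222 (median 112) in WL without overlap (log2 fold change 1.20 ± 0.20, adjusted p = 7.15e-05). Genes of MHC class II, which present antigen, had 3 of 6 higher and 0 lower. SLA-DMB, a pig chaperone of peptide loading, went from a range of 13.1 to 61.2 (median 27.95) to a range of 62.6 to 121 (median 96.5), again without overlap (log2 fold change 1.41 ± 0.22, adjusted p = 3.52e-05), and its WG median was 75.7. Of the T and NK cell genes 3 of 17 were higher and 1 lower, and of the B and plasma cell genes 3 of 7 were higher and 1 lower. Of the interferon-stimulated genes 0 of 19 were called by edgeR or DESeq2, with 3 by edgeR and 4 by DESeq2 at an unadjusted p below 0.05. Without NC replicates 4, 6 and 10, 3 of these were higher and 1 lower.

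Markers of blood moved in the same direction as the immune genes. Of the erythrocyte and neutrophil list 4 of 8 tested members were higher and 1 lower, with a summed level of 132 to 795 CPM in NC and 398 to 1367 in WL, and 0 of its members in the table were at 0 in every library. HBB, the beta globin, was at 53.6 to 632 (median 222) in NC and 246 to 1199.8 (median 592) in WL (log2 fold change 1.299 ± 0.35, adjusted p = 0.00553). The part of blood cells in the macrophage values was not tested.

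The markers of obesogenic memory that the study used, inflammatory genes that stay high after weight loss, came in part from work in mice (IL6, IL10 and CCL2 among them). SHARPIN, CD180, TNFRSF1A and CLEC7A were named by the study itself, in omentum, mesenteric fat, RAD and backfat in turn. Only TNFRSF1A was thus named on RAD, where its direction is not independent evidence. SHARPIN, CD180 and CLEC7A were named on other depots of the same study, so that their direction is not fully independent either. The study also showed IL6, IL10 and CCL2 in RAD, among markers that it describes as kept high after weight loss. Their direction in RAD is thus not independent evidence. That description sets WL against WG, whereas the calls here set WL against NC. Of the 7 tested here 3 were higher and 0 lower (median log2 fold change 0.36), and 1 and 0 in the high-share libraries. IL6 had 1.89 to 18.2 (median 4.45) CPM in NC, a median of 14.96 in WG and 4.29 to 21.8 (median 9.16) in WL (log2 fold change 0.92 ± 0.33, adjusted p = 0.0291). It was not called with the PCG share set as a term (adjusted p = 0.0682), without NC replicates 4, 6 and 10 (0.0670), or without WL replicate 1, 6 or 10 (0.0526 to 0.0694). IL10, an anti-inflammatory cytokine, was at 0.225 to 1.77 (median 0.884) in NC and 0.859 to 5.22 (median 1.87) in WL (log2 fold change 1.29 ± 0.35, adjusted p = 0.00511). SHARPIN, which takes part in linear ubiquitin chain assembly, was higher too (log2 fold change 0.68, adjusted p = 0.00439). IL6, IL10 and SHARPIN were the 3 DEGs of the list, so TNFRSF1A, the gene named on RAD, was not called. CCL2, the monocyte chemokine, was not called (log2 fold change 0.36 ± 0.41, adjusted p = 0.5004). TNF and CCL3 matched no gene identifier by symbol and were not analysed here.

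Immediate early genes, which answer stimuli within minutes, were higher in WL. Of 19 tested 10 were higher and 1 lower (median log2 fold change 0.77), and 8 and 4 without NC replicates 4, 6 and 10. FOS lay at 86.4 to 746 (median 271) CPM in NC, at a median of 608 in WG and at 557 to 1752 (median 976) in WL (log2 fold change 1.696 ± 0.35, adjusted p = 5.65e-04). JUNB went from a range of 21.9 to 136 (median 56.7) to a range of 87.0 to 275 (median 184), with 9 of 10 WL libraries above all NC libraries (log2 fold change 1.503 ± 0.27, adjusted p = 1.93e-04). DUSP1, a phosphatase that ends MAP kinase signals and is also induced by glucocorticoids, was higher by 1.14 and SGK1, a kinase with the same regulation, by 0.77 on the log2 scale. Of 14 glucocorticoid targets 4 were higher and 2 lower. The handling times of the tissues are not given in the sources used here and their part in these values was not tested.

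Heat shock genes had 1 of 14 tested members higher and 3 lower (median log2 fold change 0.03). HSPD1, the mitochondrial chaperonin, fell without overlap from a range of 421 to 766 (median 479) CPM to a range of 142 to 343 (median 260) (log2 fold change -1.01 ± 0.14, adjusted p = 1.68e-05), whereas the cytosolic chaperone HSPA8 was higher (log2 fold change 1.16). BAG3, a cochaperone, was lower (log2 fold change -2.32 ± 0.38, adjusted p = 8.07e-05), although NC replicates 4, 6 and 10 lay at 8.47 to 29.8, where WL spanned 12.6 to 34.9. Of 21 genes of the amino acid and unfolded protein response 5 were higher and 4 lower, but 8 and 2 without NC replicates 4, 6 and 10 and 1 and 5 in the high-share libraries. PSAT1, an enzyme of serine synthesis, was lower (-1.75), and MTHFD2, of mitochondrial folate metabolism, and XBP1 were higher (0.90 and 0.69).

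Remodelling and crosslinking genes had 6 of 25 tested members higher and 0 lower, with MMP14, a membrane collagenase, TGFB3 and LOXL4 among them (log2 fold changes 0.63, 1.14 and 2.96). Without NC replicates 4, 6 and 10 these counts were 7 and 3. Fibrillar and type VI collagens had 1 higher and 5 lower of 12 (1 and 1 in the high-share libraries), and 0 and 8 from WG to WL. COL1A1, the main chain of type I collagen, was at 247 to 2765 (median 1042) CPM in NC, at a median of 885 in WG and at 89.4 to 946 (median 160.1) in WL (log2 fold change -2.08 ± 0.46, adjusted p = 0.00118). NC replicates 4, 6 and 10 were the low end of NC (247 to 388), and among the libraries of high PCG share COL1A1 was not called (log2 fold change -1.74, adjusted p = 0.0594). In the basement membrane list 2 of 17 were higher and 4 lower (COL4A1, LAMC3, NID1 and HSPG2).

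Vessel genes were also called in both directions. The endothelial list had 4 of 15 tested members higher and 4 lower (median log2 fold change 0.05), so it did not move one way. TIE1 and EGFL7 were among the 4 higher (log2 fold changes 0.74 and 0.88), and the 4 lower are not reported here. RGS5, the marker of pericytes, fell without overlap from a range of 115 to 318 (median 214) CPM to a range of 13.04 to 66.1 (median 33.8) (log2 fold change -2.63 ± 0.27, adjusted p = 4.12e-07), while the contractile genes ACTA2, TAGLN and LMOD1 were higher (1.24, 1.33 and 0.97). The smooth muscle list had 3 of 13 tested members higher and 2 lower (median log2 fold change 0.36). PDGFRA, a marker of adipocyte progenitors, was the 1 DEG of 13 progenitor genes (log2 fold change 0.67 ± 0.12, adjusted p = 2.00e-04).

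The list of the IGF axis had 4 of 13 tested members higher and 1 lower (median log2 fold change 0.27). IGFBP2, a binding protein of insulin-like growth factors, rose without overlap from a range of 5.55 to 22.4 (median 9.03) CPM to a range of 23.4 to 64.4 (median 33.8) (log2 fold change 1.64 ± 0.23, adjusted p = 1.50e-05), and its WG median was 29.4. IGF2R, the receptor that removes IGF2, fell without overlap from a range of 168 to 249 (median 213) to a range of 101.6 to 154 (median 121) (log2 fold change -0.84 ± 0.10, adjusted p = 1.98e-06). INHBB, the subunit of activin B, was higher (log2 fold change 1.67). HOX and visceral patterning genes had 1 of 16 higher and 6 lower, with HOXC10 at 0.328 to 6.76 (median 3.10) in NC and 0 to 0.978 (median 0.301) in WL (log2 fold change -3.44 ± 0.57, adjusted p = 9.00e-05). Of the proliferation genes 4 of 18 were higher and 1 lower (0 and 1 in the high-share libraries), and of the hypertrophy genes used by the study 3 of 10 were higher and 1 lower.

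Markers of tissue next to the depot were low. Of the kidney and adrenal list 2 genes passed the filter and 0 were called, with a summed level of 13.1 to 67.0 CPM in NC and 12.7 to 21.8 in WL (STAR and MC2R, edgeR adjusted p = 0.701 and 0.579, 0 at an unadjusted p below 0.05 by edgeR or DESeq2). Of the mesothelial list 3 passed and 1, WT1, was lower (log2 fold change -0.72). Skeletal muscle genes had 0 of 5 higher and 3 lower, with a summed level of 49.0 to 229 CPM in NC and 59.6 to 99.1 in WL, and their part in other values was not tested. The thermogenic list had 0 of 12 higher and 3 lower, CKB, UCP2 and COX7A1, and complement genes other than C1q had 2 of 12 higher and 0 lower.

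**Figure D3:**
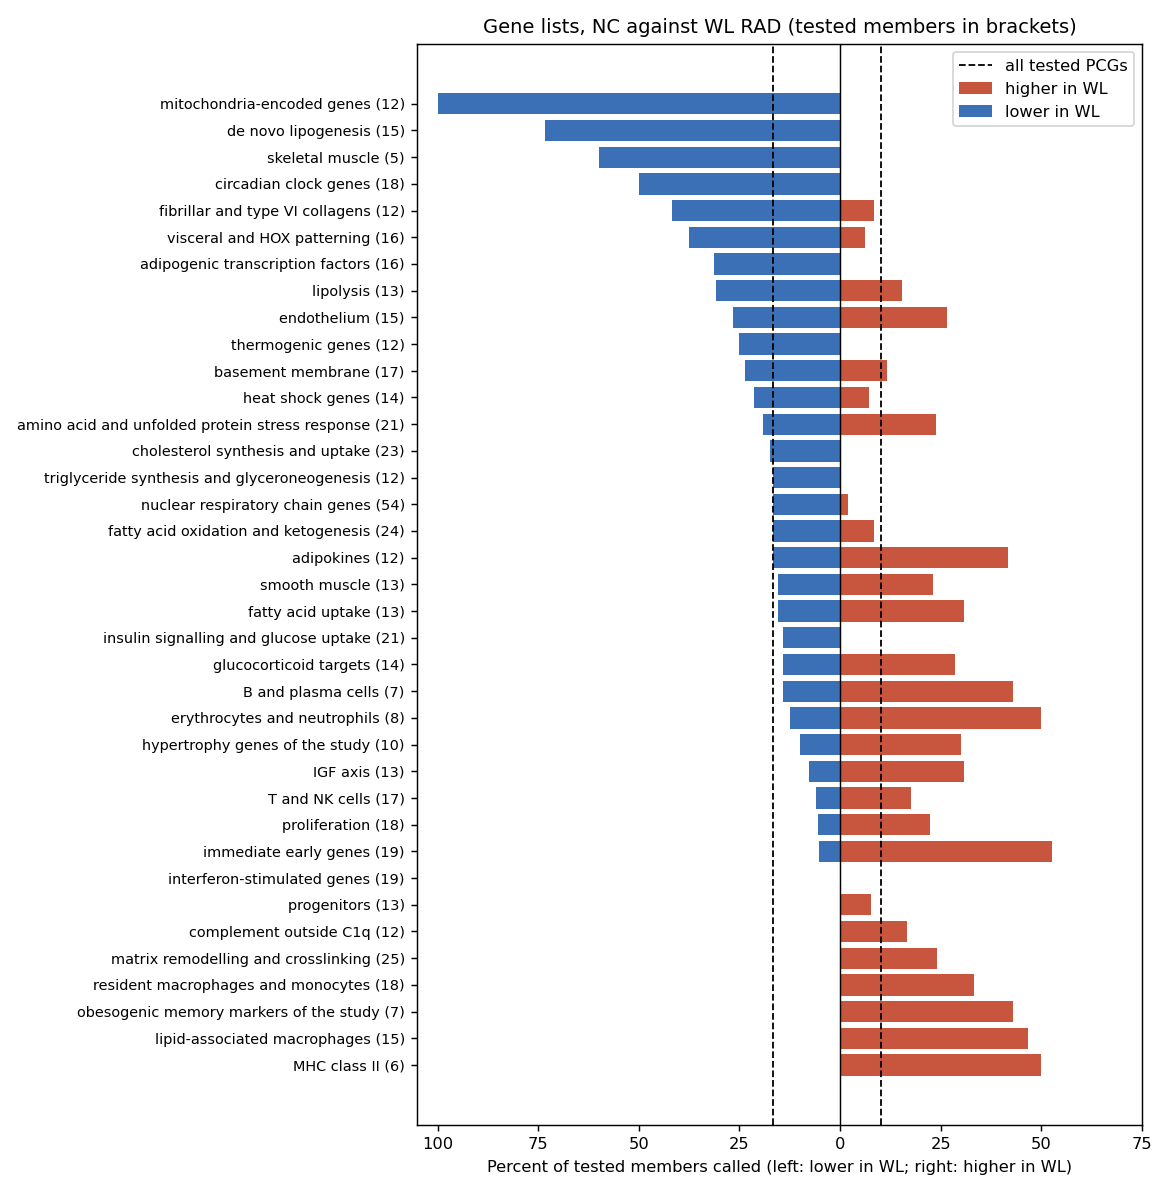
Percent of the tested members of each gene list that were DEGs between NC and WL RAD (x axis, left of 0 lower in WL, right of 0 higher in WL), with the number tested in brackets; dashed lines mark all tested PCGs (16.6% lower, 10.2% higher). The mitochondria-encoded, lipogenic and skeletal muscle lists reach furthest left, with the clock genes next, and the immediate early, MHC class II and macrophage lists reach right with few or no members lower.

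The split by PCG share left most named genes called. Of the 224 named genes, 12 were no longer called with the share set as a term, 57 in the high-share libraries alone (6 NC and 8 WL) and 63 in the low-share libraries alone (6 NC and 2 WL). Both sets hold fewer libraries than the main fit, and the part of library number in these losses was not tested. Beside these 63, another 3 named DEGs, ADIPOQ, SPP1 and ZDBF2, lost their call in the low-share libraries with the opposite sign. In the high-share libraries 0 had the opposite sign. FASN, ME1, MLXIPL, LEP, ANGPT4, NPR3, ACP5 and RGS5 were called in both sets. Of the DEGs named in the text, COL4A1, IL6, TEX14, TRUB2, UCP2 and ZDBF2 were not called with the share set as a term. In the high-share libraries the calls of ANGPTL4, HILPDA, CPT1B, EBF1, HBB, HSPA8, XBP1, PDGFRA, TIE1, SHARPIN, WT1, ARHGAP28, BNC2, NAV2, NTMT1, SSUH2, TREM2 and DUSP14 were lost as well. UCP2 and TEX14 also lost their calls in 13 and 15 of the 22 fits that leave out 1 library (adjusted p up to 0.0752 and 0.092), and EBF1 (NC replicate 3), PDE3B (NC replicate 3, WL replicates 5 and 10), COL4A1 (WL replicates 3 and 7), TRUB2 (5 libraries) and SSUH2 (WL replicate 2) each in some.

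Chromatin compartments were compared with the A-B index, a score per 20-kb bin that is positive in compartment A, the open and gene-rich part of the nucleus, and negative in compartment B. WL samples had more positive bins than NC samples, 50.3% ± 0.232 (SD, n = 10) against 47.3% ± 1.08 (n = 12). The NC samples reached from 45.3% to 49.1% and the WL samples from 49.8% to 50.7%, so the groups did not overlap (difference 2.99 percentage points, two-sided permutation p = 2e-05, the smallest that 100000 permutations gave). The index of the median bin was higher by 0.28 in WL as deposited and lower by 0.01 after quantile normalization between samples, so changes of single bins are given on both scales.

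Of 113298 autosomal bins, 30.7% had a higher and 2.59% a lower index in WL at an adjusted p below 0.05 by limma, whereas the shares were 13.4% and 13.4% after quantile normalization and 13.5% and 9.84% after subtracting the median of each sample. A/B variables, bins that stayed in their compartment with an index difference above 0.75, numbered 14415 with a higher index (12.7%, 288 Mb) and 532 with a lower (0.47%). On the quantile-normalized scale they numbered 5394 and 4021, and 5262 of the higher and 513 of the lower were called on both scales. The excess of higher over lower bins was thus 14415 to 532 on the deposited scale and 5394 to 4021 on the other.

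**Figure D4:**
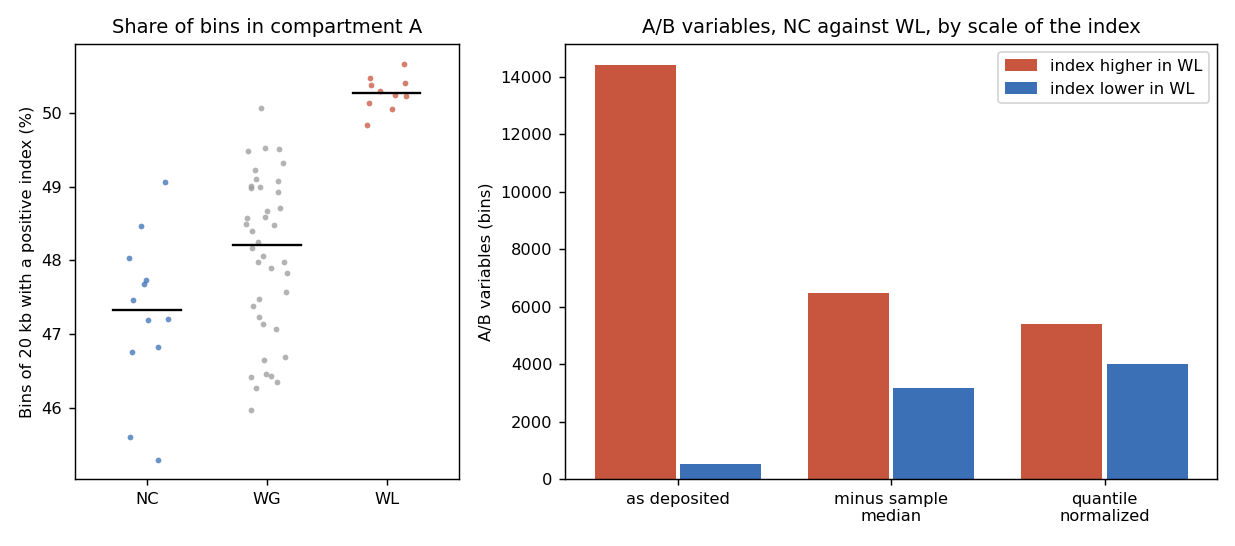
Left, share of 20-kb bins with a positive A-B index (y axis, %) in each NC, WG and WL Hi-C sample of RAD, with medians as lines; right, number of A/B variables between NC and WL (y axis, bins) on 3 scales of the index. WL samples lie at 49.8% to 50.7%, above all NC samples, and the higher A/B variables fall from 14415 as deposited to 5394 after quantile normalization while the lower rise from 532 to 4021.

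A bin changed frequency when at most 30% of the samples of one group and at least 70% of the other were in compartment A. From low in NC to high in WL went 1557 bins and from high to low 85, and 537 and 85 of these were found on both scales. The balance turned with the scale, since after quantile normalization 541 bins went from low to high and 676 from high to low, and after subtracting the sample median 512 and 620. In WG a median of 42.5% of samples were in compartment A at the bins that went from low to high. A/B switches, with over 80% of the samples of each group in opposite compartments, numbered 439 from B to A and 9 from A to B, of which 108 and 9 were found on both scales. This balance turned too, with 109 from B to A and 331 from A to B after quantile normalization and 104 and 218 after subtracting the median.

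Of 10381 tested PCGs with an autosomal start, 10.9% were higher and 13.4% lower in WL. Of the 100 that start in bins going from low to high frequency of A 16 were higher and 10 lower, of the 8 in bins going from high to low 0 were higher and 3 lower, and of the 24 at switches from B to A 2 were higher and 3 lower. Bins of higher A/B variables held 2843, of which 347 were higher and 340 lower, and bins of lower A/B variables held 71, of which 5 were higher and 15 lower (7.04% and 21.1%). On the quantile-normalized scale the lower A/B variables held 506, of which 51 were higher and 63 lower (10.1% and 12.5%), near the share of all placed PCGs. Higher A/B variables then held 1309 (164 higher and 155 lower), low-to-high bins 43 (6 and 3) and high-to-low bins 21 (2 and 4).

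The 3 DEGs in bins that left compartment A lay on chromosome 12. ACACA (chr12:38580916-38875067, minus strand, start in the bin chr12:38860001-38880000) had a positive index in 11 of 12 NC, 17 of 40 WG and 3 of 10 WL samples, from a range of -0.26 to 1.07 (median 0.39) in NC to a range of -0.84 to 0.36 (median -0.38) in WL (difference -0.73, adjusted p = 0.00316; -1.03 after quantile normalization). P2RX5 was positive in 9, 20 and 3 samples (difference -0.83, adjusted p = 0.0150; -1.12 after quantile normalization). DUSP14, a phosphatase gene close to ACACA, was the third, positive in 10 of 12 NC and 3 of 10 WL samples. Its index difference was not significant as deposited (-0.36, adjusted p = 0.110 by limma). After quantile normalization it was -0.67 (adjusted p = 0.00403). Its expression was 4.16 to 28.97 (median 13.7) CPM in NC and 4.67 to 6.65 (median 6.08) in WL (log2 fold change -1.39 ± 0.32, adjusted p = 0.00132 by edgeR). NC replicates 4, 6 and 10 lay at 5.68 to 6.49 CPM, inside the WL range, and in the high-share libraries the log2 fold change was -0.18 (adjusted p = 0.571). The bin of LPL, named among the uptake genes, was positive in 7 of 12 NC, 11 of 40 WG and 0 of 10 WL samples (difference -0.64, adjusted p = 0.00994; -0.94 after quantile normalization), outside the limits of a frequency change, since the NC share was under 70%. FASN stayed in compartment A in all samples, with an index of 4.28 to 6.06 (median 5.07) in NC and 4.28 to 5.40 (median 4.97) in WL (difference -0.10, adjusted p = 0.716; -0.47 after quantile normalization).

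In the other direction, COL8A1, a network collagen of vessel walls, was positive in 3 of 12 NC, 33 of 40 WG and 10 of 10 WL samples (difference 1.32, adjusted p = 3.74e-06; 1.01 after quantile normalization, where its frequency change was not found), and its expression was 2.48 to 11.7 (median 4.93) CPM in NC and 8.66 to 28.4 (median 14.3) in WL (log2 fold change 1.45 ± 0.25, adjusted p = 1.25e-04). CRTAC1, a matrix protein, was positive in 2, 9 and 9 samples (difference 0.61, adjusted p = 0.00142; 0.31 and adjusted p = 0.0864 after quantile normalization, where its frequency change was still found), and its expression rose, with medians of 1.703 CPM in NC, 1.61 in WG and 6.34 in WL (log2 fold change 2.31 ± 0.35, adjusted p = 3.64e-05). SSUH2, ARHGAP28 and LURAP1L were further DEGs that were higher in such bins (log2 fold changes 1.02, 0.73 and 1.16), and the frequency change of SSUH2 was found on the deposited scale only. CRTAC1 passed the filter on low values in WL and not in NC, so the direction of its expression is partly set by the filter. Against the direction of the index, ARHGEF26, BNC2 and NAV2 were lower in expression (-1.14, -0.97 and -1.44) at switches from B to A. The switches of these 3 genes, of CRTAC1 and of SSUH2 were not found after quantile normalization.

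**Figure D5:**
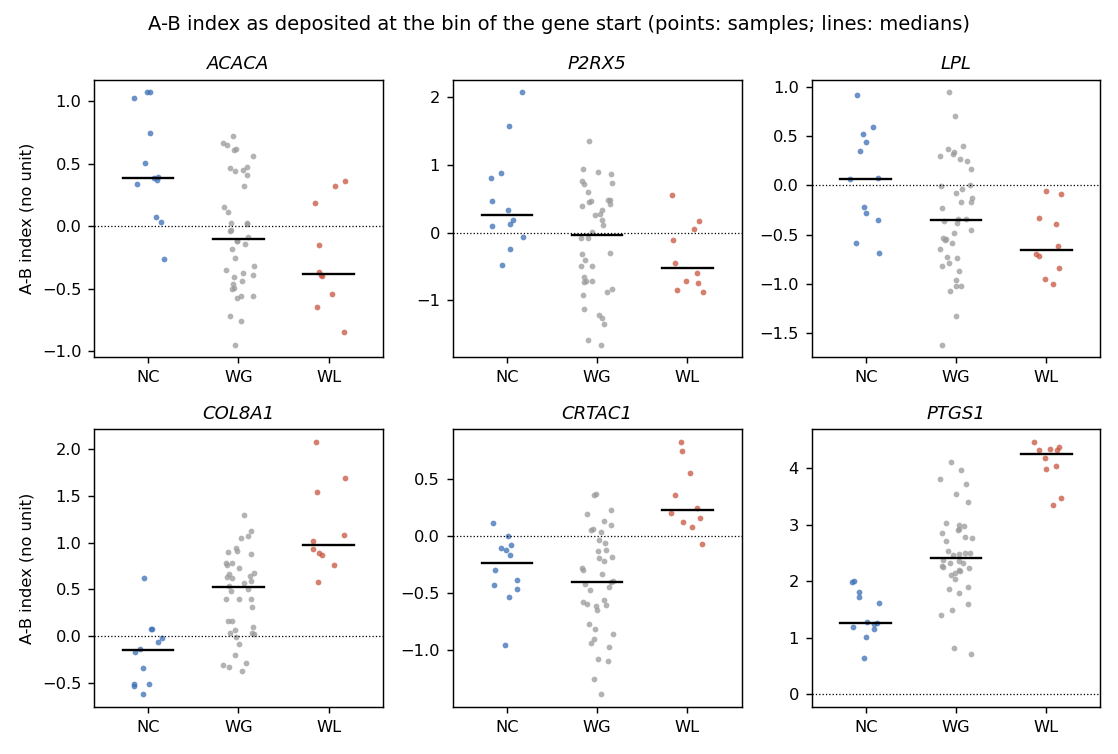
A-B index as deposited (y axis, no unit) at the 20-kb bin of the gene start for 6 genes in each NC (12), WG (40) and WL (10) Hi-C sample; lines are medians and the dotted line is 0, the border between compartments. ACACA, P2RX5 and LPL are lower in WL than in NC, and COL8A1, CRTAC1 and PTGS1 are higher, with the WL samples of PTGS1 above all NC samples.

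Among DEGs in A/B variable bins, the largest rises of the index included several genes on chromosome 1. PTGS1, the constitutive cyclooxygenase (start in the bin chr1:262440001-262460000), had an index of 0.64 to 1.99 (median 1.26) in NC and 3.34 to 4.46 (median 4.25) in WL without overlap (difference 2.67, adjusted p = 6.96e-10; 2.29 after quantile normalization), and its expression was higher as well, at 12.6 to 35.1 (median 21.2) CPM in NC and 28.9 to 64.5 (median 33.4) in WL (log2 fold change 0.84 ± 0.18, adjusted p = 7.04e-04). TRUB2 (difference 3.05) and NTMT1 (2.37) lie further along the same chromosome and were higher in expression too (log2 fold changes 0.61 and 0.998). SMAD7, the inhibitor of TGF-beta signals, rose in index (difference 2.30, adjusted p = 1.50e-08) and expression (log2 fold change 1.52 ± 0.28, adjusted p = 2.43e-04).

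At the leading bins whatever their expression, GSN, the actin-severing gelsolin, rose most of the named genes whose index kept its sign on both scales (3.71 ± 0.77 in NC, 7.27 ± 0.66 in WL; difference 3.56, adjusted p = 7.75e-09), yet its expression was not called (log2 fold change 0.15). The bin of ADIPOR1 and CYB5R1 on chromosome 10 rose by 3.62 as deposited, from a mean of -15.03 to -11.4, but its difference was -1.503 after quantile normalization. The largest falls were at TEX14 and RAD51C (-1.57), at SECISBP2 and CKS2 (-1.41) and at YBX1 (-1.37), and these were larger after quantile normalization (-1.88, -1.77 and -1.71). YBX1, an RNA-binding protein, was also lower in expression (log2 fold change -0.70 ± 0.12, adjusted p = 8.14e-05).

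By list, the index at gene starts was compared with all 13094 placed PCGs, whose median difference was 0.412 as deposited and 0.067 after quantile normalization. Of all placed PCGs 5974 were higher and 419 lower as deposited, and 3130 and 1983 on the other scale. The lipogenic genes had 0.25 and -0.11, with 5 of 14 higher and 2 lower as deposited and 2 and 5 on the other scale, so their direction depended on the scale. The immediate early genes had 0.75 and 0.34, with 13 of 19 higher and 0 lower, and 8 and 0 after quantile normalization. FOS and JUNB were among them (difference 1.29, adjusted p = 2.17e-06 for FOS; difference 1.34, adjusted p = 3.24e-05 for JUNB). Resident macrophage genes had 13 of 18 higher and 0 lower, and 7 and 0 after quantile normalization, and the class II genes 4 of 6 higher and 0 lower on both scales. LEP had a higher index as deposited (difference 0.71, adjusted p = 0.00398) that was not called after quantile normalization (0.34, adjusted p = 0.143).

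H3K27ac, the histone mark of active enhancers, was deposited for RAD as 1 pooled table of stitched regions per group (2 NC and 4 WL samples), so these values are descriptions with no replicates. The NC table held 20732 regions with 1211 super-enhancers and that of WL held 21825 with 1346, and regions were wider in WL (median 8999 bp against 6599), which limits comparisons of rank. Within 10 kb of FASN the best region of NC was a super-enhancer of 780 kb at rank 7 and that of WL one of 62.0 kb at rank 981. The H3K27ac signal of these regions was 274950 over an input of 148670 in NC and 32239 over 9684 in WL, so the wide NC region also had much input. ACLY and MLXIPL had a super-enhancer in NC (ranks 537 and 581) and none in WL (best ranks 4104 and 5750). Here the best regions were wider in NC, 174 kb against 17.4 kb for ACLY and 186.8 kb against 13.6 kb for MLXIPL, which limits these ranks too. The signal of ACLY was 52983 over an input of 32207 in NC and 9110 over 2441 in WL. That of MLXIPL was 53779 over 34109 and 6326 over 1998. ME1 had 3 regions in NC and 0 in WL, and LPL went from rank 4216 to 19926. ADIPOQ had a super-enhancer in NC (rank 318) and none in WL (3970), while PPARG had one in both and ranked higher in WL (84 against 971). FOS ranked 18 in NC and 5 in WL, and LEP, whose expression was higher in WL, ranked 3071 in NC and 6104 in WL.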

How the data were processed

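RNA was depleted of rRNA and sequenced with strand kept. The authors made estimated counts and TPM per gene with kallisto 0.43.0 on Sscrofa11.1 and summed transcripts to genes with tximport, one column per library. The TPM values as deposited are scaled over protein-coding genes and 2 classes of noncoding genes together. The A-B index, a score without unit, was made by the authors for each 20-kb bin from contact matrices quantile-normalized between samples. The H3K27ac signal of ROSE regions was deposited by the authors for pooled samples only. The count table held 9 columns that match no deposited sample, and these were not used. Of the PCG counts 18.7% were 0 and 0 of the others were whole numbers within 1e-09, so counts were rounded before testing.

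Depth was 8485310 to 20357269 PCG counts per library, and correlations of log2(TPM + 1) between libraries were 0.914 to 0.989, so no library was counted as a copy. PCGs above 0.5 TPM in at least 80% of NC or of WL libraries were tested with edgeR 4.0.16 (R 4.3.3, TMM, quasi-likelihood test, group as the only term, Benjamini-Hochberg adjustment over 13782 genes). DESeq2 1.42.0 was an alternative. Index differences were tested with limma 3.58.1 on 113298 bins of 18 autosomes. Library properties were compared with 100000 permutations (seed 20230612) with scipy 1.17.1 (Python 3.11.15, pandas 2.3.3, numpy 2.4.6), and figures were drawn with matplotlib 3.10.9. On simulated counts for this comparison (13782 genes, few of them changed), 59% of genes changed by 1 on the log2 scale and 95% of those changed by 2 were called, with 6 false calls.

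Of 21280 PCG rows 14821 had a symbol and 13563 matched RefSeq positions, 13094 of them on an autosome. The members and the 39 gene lists were chosen with earlier results of these data known. Named genes were the 12 largest rises and 12 largest falls among DEGs with a symbol, a mean of at least 5 TPM in the higher group and the same call with the PCG share set as a term, up to 4 members per list by adjusted p plus defining members, DEGs at bins that changed frequency or switched, up to 10 DEGs in A/B variables, and up to 5 genes per direction at leading bins. Deviations from the group means of NC and WL samples with the same number had a median correlation of 0.0216 in expression and 0.0388 in the A-B index, above 0.1 in 3 of 10 pairs each, so the numbers were not taken to pair samples. The alternatives with low-share libraries alone, with mitochondria-encoded genes left out before scaling and without NC replicates 4, 6 and 10 were chosen after seeing the data. Expression of noncoding genes and the tables of other tissues were not analysed here, and some named genes are not reported here.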

Additional observations from a re-analysis of the deposited data

Results flagged for a closer look

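In 10 WL libraries or samples, 224 named genes and 5 properties of libraries or samples were examined for a value far from the rest of its group by Dixon's ratio of gap to range. Chance flags about 1 in 20 groups, and 6 were found, all genes. RGS17 in WL replicate 3 (9.83 CPM, ratio 0.596) and MCM2, a replication licensing factor, in WL replicate 6 (15.8 CPM, 0.575) had the largest ratios. CRYAB, a small heat shock protein (343 CPM, 0.530), and ACSL1 (1661 CPM, 0.488) stood apart in WL replicate 4, which belongs to the low-share libraries. CPT1A in WL replicate 3 (99.7 CPM, 0.512) and ADIPOR1 in WL replicate 9 (157 CPM, 0.503) were the others. The calls of RGS17 and CPT1A were the same without WL replicate 3, that of MCM2 was lost without WL replicate 6 (log2 fold change 0.51, adjusted p = 0.0708), and ACSL1 was called without WL replicate 4 (-1.25, adjusted p = 0.00173).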

How the results depend on the processing

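The counts of higher and lower DEGs, 1403 and 2282, were within 1.5 times under RLE and upper quartile normalization, DESeq2, the edgeR exact test, a minimum of 1 TPM, a fit with WG, either term for PCG share and without mitochondria-encoded genes. They were 695 and 1293 in the high-share libraries and 1727 and 2009 in the low-share libraries. The cause of this gap was not tested. Without NC replicates 4, 6 and 10 the higher count was 2167, and with no filter on low genes, where more genes were tested, the lower count was 3476. Leaving out 1 library gave 1294 to 1707 higher and 2136 to 2469 lower, both highest without NC replicate 4. Between the low-share libraries the log2 fold changes of ADIPOQ (0.31), SPP1 (-0.28) and ZDBF2 (-0.15) had the opposite sign, and the cause was not tested.

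Compartment counts depended on the scale of the index. After quantile normalization and after subtracting the sample median, A/B variables were 5394 and 6488 higher and 4021 and 3171 lower, bins from low to high frequency 541 and 512, from high to low 676 and 620, switches from B to A 109 and 104 and from A to B 331 and 218. With other limits (index difference 0.5, classes at 80% and 20%, switches at 90%) these 6 counts were 25024, 1908, 757, 21, 93 and 0. Leaving out 1 sample gave 13160 to 15712 and 433 to 682 A/B variables, 1205 to 1831 and 51 to 123 bins of changed frequency, and 448 to 545 and 9 to 16 switches. The 51 to 56 high-to-low bins without WL replicate 1, 3, 5, 6, 8, 9 or 10 lie under the 85 since 30% of 9 samples allows 2 and not 3 in compartment A, and the 16 switches were without NC replicate 5.

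With the replicate number as a block (replicate block, 10 pairs and the 2 other NC libraries), 1490 PCGs were higher and 1864 lower, A/B variables were 13779 and 571, and of 224 named genes 15 were no longer called and 3 were newly called. At the depth and spread of these libraries, 95% of log2 changes of 2 and 59% of changes of 1 were recovered in simulation, so smaller differences may be missed. Depth was not varied in the simulation, so its part was not tested. With 6 NC and 2 WL libraries the low-share values rest on few samples.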
